A study of Drosophila melanogaster with 8 samples.

Results

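The 4 genes described here, Ilp2, Ilp3, Ilp5 and Dsk, encode the peptides of the insulin-producing neurons of the Drosophila brain. They were chosen by gene, as the 3 insulin-like peptide genes of these neurons and the drosulfakinin gene expressed with them, and each was read from its 1 RefSeq transcript among 34463 counted features. All 4 were detected, and 3 of them, all but Ilp3, passed the filter on low counts that left 5829 transcripts for the test across all transcripts.

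RNA of larval brains was counted in 4 libraries of CS and 4 of STIM KO. The CS brains came from wild-type Canton S larvae and were taken at 58 to 62 h after egg laying (AEL). The STIM KO larvae lacked Stim function in all cells through a CRISPR-Cas9 deletion in the gene, and their brains were taken at 72 to 76 h AEL. The authors treated these ages as matched in developmental stage, since growth of STIM KO larvae lags behind that of CS. STIM is the endoplasmic reticulum protein that senses store calcium and opens store-operated calcium entry. No treatment was given to either genotype, and each library pooled several brains. Genotype and age differ together in every comparison below and cannot be told apart.

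The insulin-producing neurons are a small cluster of median neurosecretory cells in each brain hemisphere. They send axons to the ring gland and aorta and release insulin-like peptides into the circulation, where these act through the insulin receptor InR to promote growth. Larvae without these cells are small and develop slowly. In wild-type larvae Ilp3 comes on in these cells later in larval life than Ilp2 and Ilp5.

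The libraries held 395680 to 2090717 counts on transcripts, and they fell into the same 2 sets in both genotypes. In replicates 1 and 2, 9.89% to 18.0% of reads were ambiguous between features, against 33.5% to 34.5% in replicates 3 and 4. The labels name no batch, so the members are also compared within both sets. Of the Stim transcripts, NM_001298380.1 was read 2, 3, 6 and 9 times in the CS libraries and never in STIM KO, while counts of NM_206747.3 overlapped between the genotypes. Of the 8 pan-neuronal genes listed, all were detected, and the summed levels of marker lists for neurons, glia, neuroblasts, muscle, ring gland and other tissues overlapped between the genotypes over 8 libraries, though not all of them within the sets. Levels are given as CPM, the usual depth-scaled count unit, here with TMM library factors. In whole brains, fewer cells of a type and less RNA per cell cannot be told apart.

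In the dm6 assembly the 3 insulin-like peptide genes lie in the Ilp1 to Ilp5 cluster on chromosome 3L, which spans 25478 bases from 9798420 to 9823897. Ilp2 runs from 9799698 to 9800440 on the plus strand, Ilp3 from 9801298 to 9802120 on the minus strand and Ilp5 from 9823349 to 9823897 on the minus strand. Each of the 3 has 2 exons, and their exonic lengths are 670, 751 and 478 bases. Ilp2 and Ilp3 are 857 bases apart, while Ilp5 lies 19085 bases beyond Ilp4. Dsk lies elsewhere, on chromosome 3R from 4189692 to 4190260 on the minus strand, with 1 exon of 569 bases. None of the 4 shares an exon with another annotated gene. The genes whose spans enclose the insulin-like peptide genes, CG32052 and CG43897, had 1 count each in all 8 libraries together. They were counted as 3 and 17 transcripts, whose shared reads may have been set aside as ambiguous, so low counts do not show that they are silent.

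**Figure D1:**
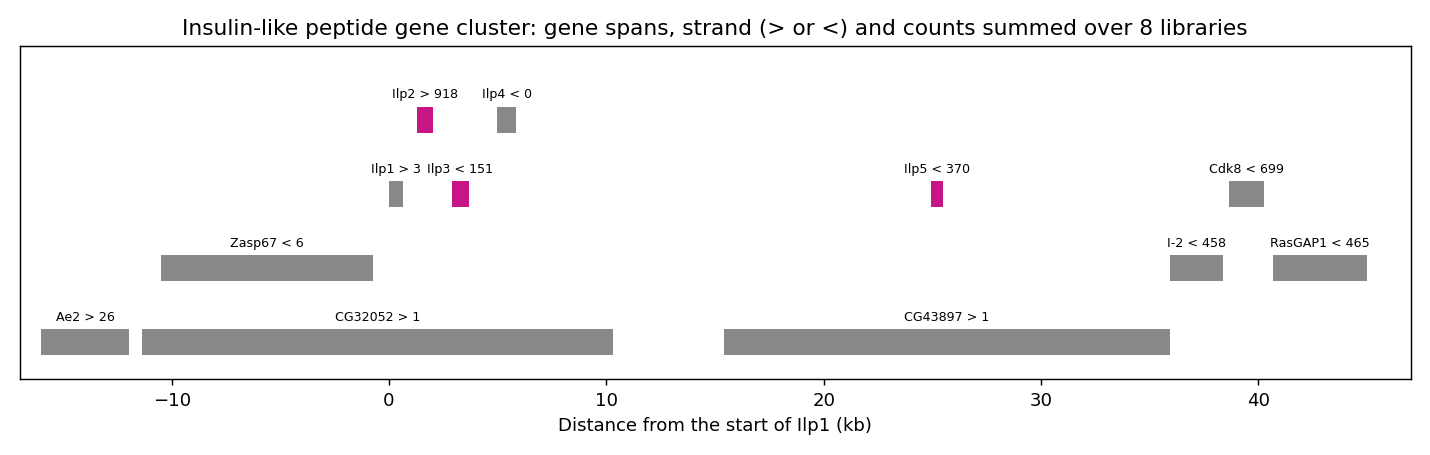
Gene spans around the insulin-like peptide cluster by distance from the start of Ilp1 in kb, with strand (> or <) and the counts summed over 8 libraries after each name; the height of a span has no meaning, and spans end at the edges of the window. Ilp2, Ilp3 and Ilp5 (magenta) had 918, 151 and 370 counts, while Ilp1 had 3 and Ilp4 had 0.

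The cluster was not uniform in these brains. Ilp1 had 3 counts and Ilp4 had 0 over the 8 libraries, beside 918 for Ilp2. Of 12 other genes within 50 kb of the cluster, 4 were tested, and their log2 fold changes of STIM KO over CS lay between -0.69 and 0.79 with no unadjusted p under 0.05.

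Ilp2 encodes a growth-promoting insulin-like peptide of these neurons. From replicate 1 to replicate 4, CS had 217, 272, 173 and 56 counts of it, and STIM KO had 47, 69, 41 and 43. The corresponding levels were 688, 548, 80.6 and 23.9 CPM in CS and 46.7, 99.6, 19.9 and 21.6 CPM in STIM KO. Both CS libraries of each set lay above both STIM KO libraries of that set, but the genotypes overlapped across the sets, since CS replicates 3 and 4 lay below STIM KO replicate 2. In CS replicate 4 the 95% Poisson interval, 18.0 to 31.0 CPM, overlapped that of STIM KO replicate 4, 15.6 to 29.1 CPM. Mean Ilp2 was 8.45-fold higher in CS than in STIM KO in replicates 1 and 2 and 2.52-fold higher in replicates 3 and 4.

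Ilp5, which encodes another growth-promoting ligand of InR, differed by more. Its counts in the same order were 77, 117, 109 and 41 for CS, against 4, 6, 0 and 16 for STIM KO. The levels were 244, 236, 50.8 and 17.5 CPM in CS and 3.98, 8.66, 0 and 8.04 CPM in STIM KO. The lowest CS library was above the highest STIM KO library. In STIM KO replicate 3 the count of 0 allows up to 1.45 CPM at 3 counts. Mean Ilp5 was 38.0-fold higher in CS in replicates 1 and 2 and 8.50-fold higher in replicates 3 and 4. Such limits and the intervals on counts cover counting error only, since reads carried no molecular identifiers.

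Ilp3, the third insulin-like peptide gene of these cells, went the other way. CS held 0, 0, 7 and 5 counts of it, against 9, 3, 76 and 51 for STIM KO. The levels were 0, 0, 3.26 and 2.13 CPM in CS and 8.95, 4.33, 36.9 and 25.6 CPM in STIM KO. The genotypes did not overlap as listed, but the evidence sits in replicates 3 and 4, where mean Ilp3 was 11.6-fold higher in STIM KO. In replicates 1 and 2 a count of 0 allows up to 9.51 and 6.05 CPM, and neither STIM KO library was above both limits. No fold is given there, and the levels alone do not resolve a difference.

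Dsk encodes the drosulfakinins, satiety peptides related to vertebrate cholecystokinin, and is also expressed in brain neurons outside the insulin-producing cluster. There were 33, 45, 40 and 34 counts of Dsk for CS, against 57, 46, 23 and 17 for STIM KO. The levels were 105, 90.7, 18.6 and 14.5 CPM in CS and 56.7, 66.4, 11.2 and 8.54 CPM in STIM KO. The genotypes overlapped over the 8 libraries. Within each set both STIM KO libraries were lower, with CS means 1.59-fold higher in replicates 1 and 2 and 1.68-fold higher in replicates 3 and 4.

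**Figure D2:**
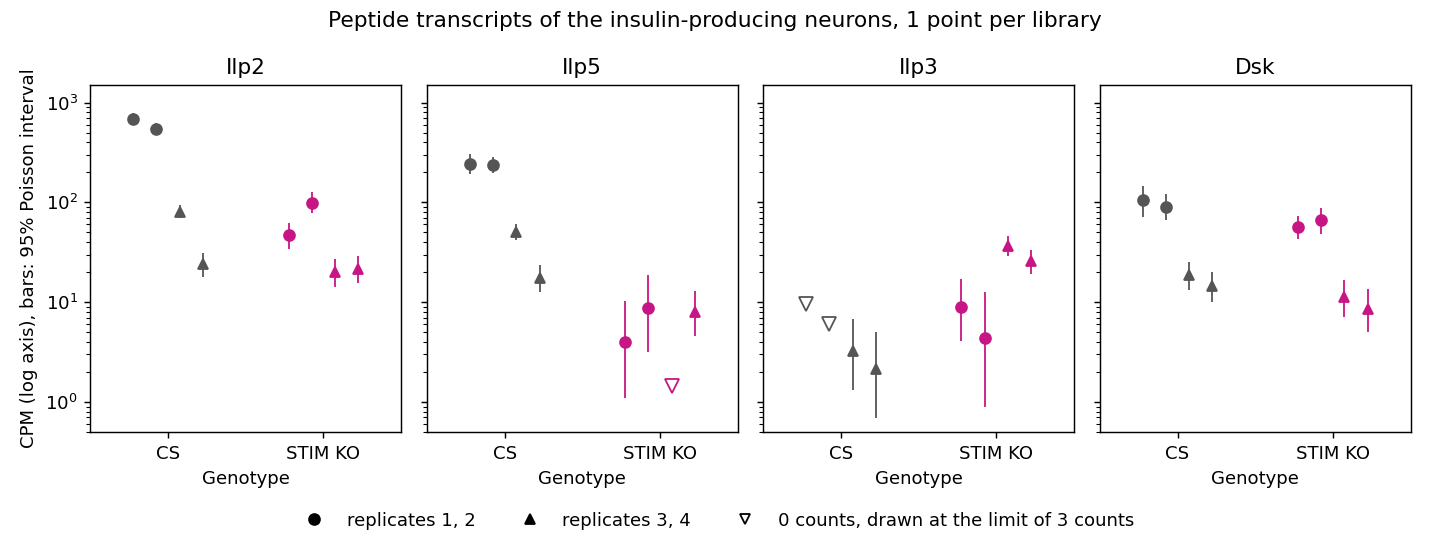
Level of each gene in each library in CPM on a log axis, CS in grey and STIM KO in magenta, circles for replicates 1 and 2 and triangles for 3 and 4; bars are 95% Poisson intervals and open triangles mark 0 counts drawn at the limit of 3 counts. Ilp5 was at 17.5 CPM or above in CS and at 8.66 or below in STIM KO, while Ilp2 and Dsk overlapped between the genotypes.

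The exact permutation test of mean log2 CPM, 2-sided over 70 labelings, can give no p below 0.0286. Ilp5 reached it with a difference of -4.06 (STIM KO minus CS; exact p = 0.0286), and Ilp3 reached it with 2.70 (exact p = 0.0286). For Ilp2 the difference was -2.09 (exact p = 0.2) and for Dsk it was -0.66 (exact p = 0.514). Groups without overlap were found for 2 of the 4 genes, beside 3.39% of the 16016 transcripts with at least 1 count and 6.04% of the 5829 tested. Within both sets all 4 genes were separated in 1 direction, as listed, beside 9.33% of those 16016 transcripts. Of the 5829 tested transcripts, which include Ilp2, Ilp5 and Dsk, 19.3% were separated within both sets. With labels permuted within the sets only, the smallest p possible was 0.0556, and all 4 genes had that p. The exact p of Ilp5 went to 0.0571 without any one of STIM KO replicates 1 to 4 (differences of -4.37 to -3.44). That of Ilp3 went to 0.0571 without any one of CS replicates 1 to 4 (differences of 2.45 to 3.01). With 1 library left out the smallest p possible is again 0.0286. The groups of Ilp5 and Ilp3 still did not overlap there, but another labeling of the unequal groups gave a difference as large.

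Across all transcripts, edgeR's quasi-likelihood test over 8 libraries, with p adjusted by Benjamini-Hochberg, called no member at 0.05 and no other transcript (0% of 5829). At an unadjusted p under 0.05, Ilp2 and Ilp5 of the 3 members tested were lower, beside 2.74% of transcripts lower and 6.09% in either direction. The log2 fold change of STIM KO over CS by edgeR was -4.74 (standard error 1.22, adjusted p = 0.486) for Ilp5 and -2.84 (standard error 1.04, adjusted p = 0.729) for Ilp2. That of Dsk was -0.66, with a 95% interval of -2.68 to 1.35 (adjusted p = 0.999 by edgeR), which holds a fall as well as a rise of over 2-fold. Ilp3 was fitted by edgeR without the filter, among all detected transcripts, and had 3.33 (standard error 1.09, adjusted p = 0.483). In that fit Ilp5 was just past the threshold (-4.59, adjusted p = 0.0492 by edgeR), beside 0.187% of transcripts. It was not past it without STIM KO replicate 1 (-4.48, adjusted p = 0.345 by edgeR) or CS replicate 1 (-4.14, adjusted p = 0.0556 by edgeR), and Ilp2 passed in that fit without CS replicate 4 (-3.07, adjusted p = 0.0186 by edgeR). DESeq2, as an alternative, called Ilp5 (adjusted p = 0.00257) and none of the other 3, beside 0.533% of its transcripts.

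The fits within sets gave the sizes more narrowly. In replicates 1 and 2, Ilp5 fell by 5.28 on the log2 scale (adjusted p = 0.0264 by edgeR with Benjamini-Hochberg adjustment) and Ilp2 fell by 3.09 (adjusted p = 0.0225 by edgeR), while Dsk was at -0.66 (adjusted p = 0.393 by edgeR). These were 2 of 3 members tested, beside 1.60% of transcripts lower. In replicates 3 and 4 the values by edgeR were -3.07 for Ilp5 (adjusted p = 0.421), -1.33 for Ilp2 (adjusted p = 0.520) and -0.74 for Dsk (adjusted p = 0.665), 0 of 3 members, beside 0.0343% of transcripts. At an unadjusted p under 0.05, 2 of the 3 were lower there, beside 5.44% of transcripts lower. In that pair of replicates Ilp3 rose by 3.44 in the unfiltered edgeR fit (adjusted p = 0.0201), beside 0.387% of transcripts higher, and Ilp5 fell by 3.10 (adjusted p = 0.000764 by edgeR), beside 0.768% lower.

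The difference between the sets was tested directly. The edgeR interaction was 1.76 for Ilp2 (adjusted p = 0.340), 2.22 for Ilp5 (adjusted p = 0.476) and -0.08 for Dsk (adjusted p = 0.972), and no transcript passed (0%, with 15.4% at an unadjusted p under 0.05 and none of the 3 members among them). Without the filter, the unadjusted p of the interaction by edgeR was 0.0248 for Ilp2 and 0.0318 for Ilp5 (adjusted p = 0.348 and 0.399), beside 9.98% of transcripts. A difference of the genotype effect between the sets was therefore not shown for any of them after adjustment, although the fold of Ilp2 was larger in replicates 1 and 2. With the set as a term over all 8 libraries, the edgeR values were -4.13 for Ilp5 (adjusted p = 0.0626), -2.22 for Ilp2 (adjusted p = 0.0870) and -0.70 for Dsk (adjusted p = 0.328), and 0.669% of transcripts were called. Without the filter and with the set term, edgeR called 3 of the 4 members, with Ilp3 at 3.64 (adjusted p = 0.00153), beside 1.60% of transcripts higher, and Ilp5 at -4.11 (adjusted p = 2.20e-10) and Ilp2 at -2.21 (adjusted p = 1.15e-04), beside 1.40% lower. Same-numbered libraries of both genotypes were also treated as a block, though pairing by number beyond the set was not shown. With the replicate as a block and the filter, edgeR called 0 of 3 members, at -4.48 for Ilp5 (adjusted p = 0.145) and -2.16 for Ilp2 (adjusted p = 0.195), beside 0.240% of transcripts. With the replicate block and no filter, edgeR called the same 3 members, with Ilp3 at 3.60 (adjusted p = 0.00188), beside 1.04% higher, and Ilp5 and Ilp2 at -4.46 and -2.14, beside 0.912% lower. Unfiltered fits draw the spread of a transcript toward that of all 16016 transcripts, most of which the filter removes. With the set term the standard error of Ilp5 was 0.567 unfiltered and 0.851 filtered. The part of this in the small p-values of the unfiltered fits was not tested, and they are not taken here as stronger evidence than the filtered ones.

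**Figure D3:**
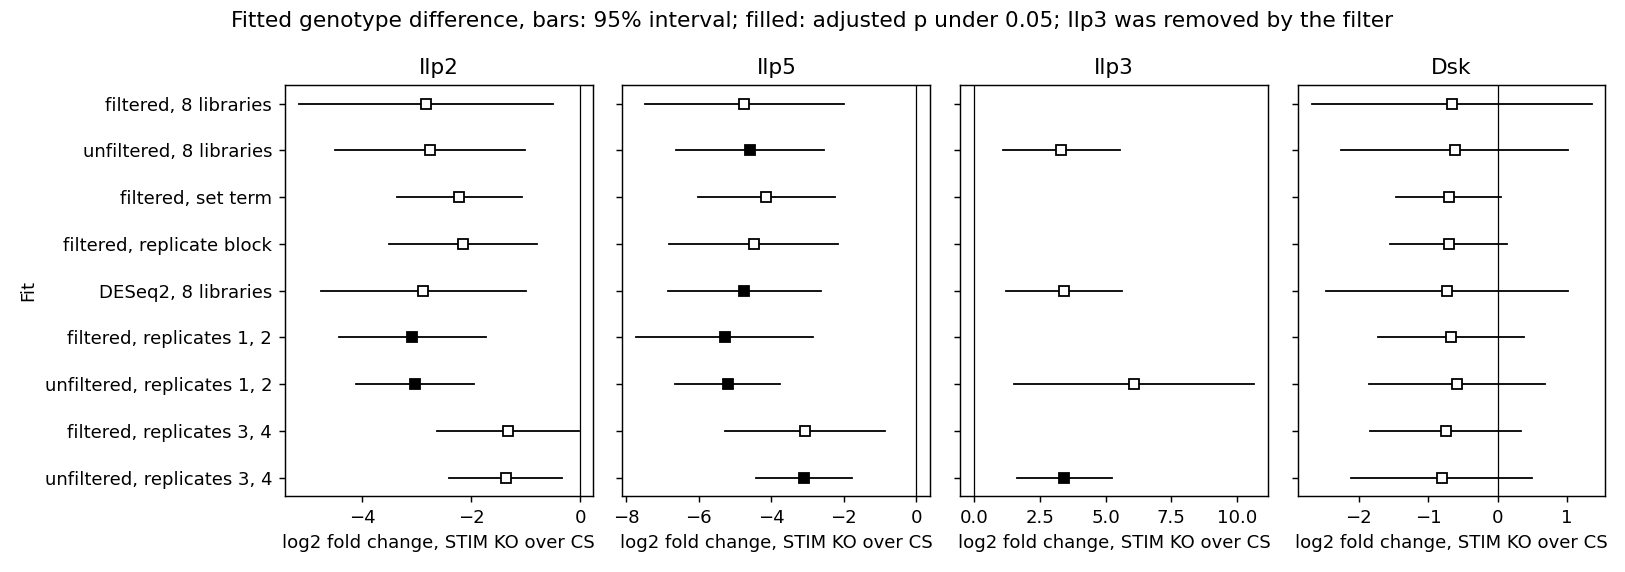
Fitted log2 fold change of STIM KO over CS (horizontal axis) for each gene under 9 fits (vertical axis), with 95% intervals; filled squares have an adjusted p under 0.05 and Ilp3 has no value where the filter removed it. All intervals of Ilp5 lie below 0, and all intervals of Dsk hold 0.

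The members differed between the library sets as well. Within CS, the edgeR log2 change of replicates 3 and 4 over 1 and 2 was -3.56 for Ilp2 (adjusted p = 0.00179), -2.81 for Ilp5 (adjusted p = 0.0280) and -2.55 for Dsk (adjusted p = 0.00326), beside 19.8% of transcripts lower. Within STIM KO it was -1.80 for Ilp2 (adjusted p = 0.0389 by edgeR), -0.60 for Ilp5 (adjusted p = 0.718) and -2.63 for Dsk (adjusted p = 0.00375), beside 19.5% lower. With library size only, Ilp5 within CS was at -2.22 (adjusted p = 0.0720 by edgeR) and Ilp2 within STIM KO at -1.22 (adjusted p = 0.133 by edgeR). Ilp3 went the other way, from 0 and 0 counts to 7 and 5 within CS, and within STIM KO it rose by 2.41 in the unfiltered edgeR fit (adjusted p = 0.0496), beside 8.55% of transcripts higher. Dsk thus differed more between the sets than between the genotypes in its fitted values. The part of the library set in the pooled values was not tested apart from these fits.

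Because a ratio of counts within a library does not depend on scaling, the make-up of the insulin-like peptide counts was compared next. Ilp5 made up 26.2%, 30.1%, 37.7% and 40.2% of the summed Ilp2, Ilp3 and Ilp5 counts of CS replicates 1 to 4, against 6.67%, 7.69%, 0% and 14.5% in STIM KO. The highest STIM KO share had an exact Clopper-Pearson 95% interval of 8.55% to 22.5%, and the lowest CS share had one of 21.3% to 31.6%. The share of Ilp5 was lower in STIM KO in every library, with a mean of 33.5% ± 6.53 (SD, n = 4) in CS and 7.23% ± 5.95 (SD, n = 4) in STIM KO (p = 0.0286, exact permutation test). The 0% rests on 117 counts and allows a share of up to 2.56%.

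The share of Ilp3 was highest in STIM KO replicates 3 and 4. It was 0%, 0%, 2.42% and 4.90% in CS, against 15%, 3.85%, 65.0% and 46.4% in STIM KO. The genotypes overlapped because STIM KO replicate 2, with 3 counts, was below CS replicate 4 (exact permutation test, p = 0.0571). The zeros in CS replicates 1 and 2 allow shares of up to 1.02% and 0.771%. In STIM KO replicate 1 the exact interval was 7.10% to 26.6%, above both of those limits.

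The share of Ilp2 differed in opposite directions in the 2 sets. It was 73.8%, 69.9%, 59.9% and 54.9% in CS and 78.3%, 88.5%, 35% and 39.1% in STIM KO (p = 0.743, exact permutation test). It was higher in STIM KO in replicates 1 and 2 and lower in replicates 3 and 4. The 3 genes summed were at 932, 784, 135 and 43.5 CPM in CS and 59.7, 113, 56.7 and 55.2 CPM in STIM KO (exact permutation test of log2 values, p = 0.229). In replicates 3 and 4 the sums overlapped between the genotypes, while the shares of Ilp5 and Ilp3 did not.

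**Figure D4:**
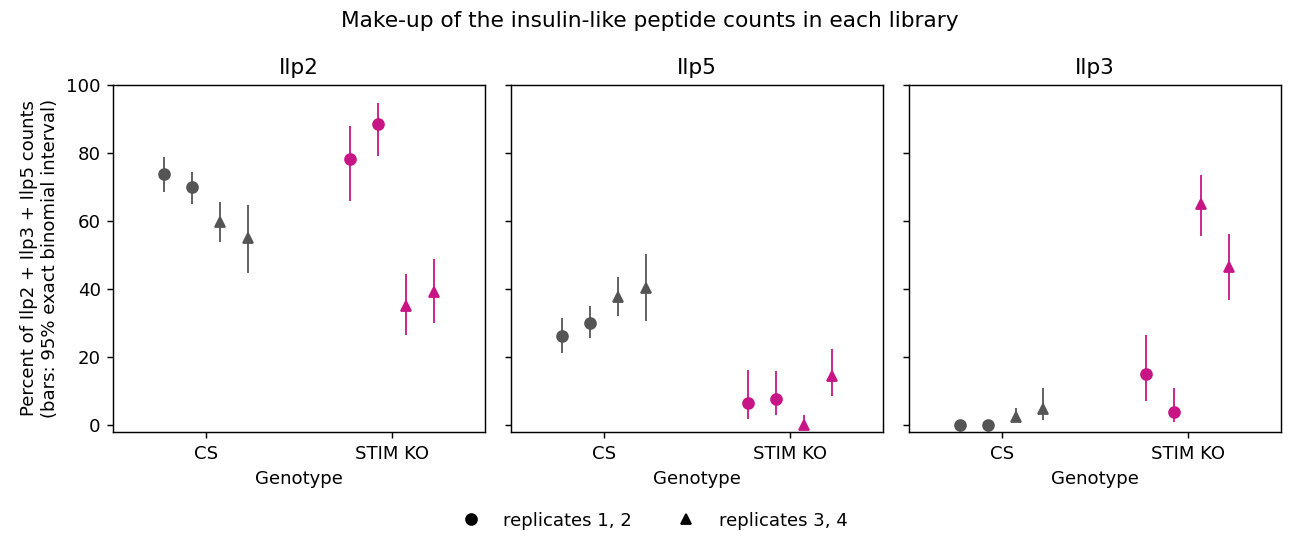
Share of each gene in the summed Ilp2, Ilp3 and Ilp5 counts of a library in percent, with exact 95% binomial intervals, by genotype, circles for replicates 1 and 2 and triangles for 3 and 4. The Ilp5 share was 26.2% or more in CS and 14.5% or less in STIM KO, and the Ilp3 share reached 65.0% in STIM KO.

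Per kb of exon, the order of the 4 genes within a library differed between the genotypes. Ilp2 per kb was 2.01 and 1.66 times Ilp5 in CS replicates 1 and 2, with exact 95% intervals above 1, while in CS replicates 3 and 4 the ratios of 1.13 and 0.974 were not resolved from 1. In STIM KO, Ilp2 per kb was above Ilp5 in all 4 libraries, by 8.38, 8.20 and 1.92 times in replicates 1, 2 and 4 and by at least 7.58 times, the lower bound of its interval, in replicate 3. Ilp3 was the lowest of the 4 in every CS library. In STIM KO replicate 3 Ilp3 was at 49.1 CPM per kb, 1.65 times Ilp2 (interval 1.12 to 2.48). In STIM KO replicate 4 it was at 34.1 CPM per kb, and its ratio to Ilp2 of 1.06 was not resolved from 1. In STIM KO replicates 1 and 2 Ilp3 was at 11.9 and 5.77 CPM per kb, far below Ilp2 and Dsk, and was not resolved from Ilp5.

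Dsk, transcribed in these neurons but also in others of the brain, was used as a denominator as well. Its counts are thus not those of the insulin-producing neurons alone, and its own level was lower in STIM KO within both sets. Ilp5 counts per Dsk count were 2.33, 2.6, 2.73 and 1.21 in CS, against 0.0702, 0.130, 0 and 0.941 in STIM KO. The mean log2 ratio, with 0.5 added to each count, fell by 4.11 in STIM KO over 8 libraries (exact permutation test, p = 0.0286), and fell by 4.55 in replicates 1 and 2. The size of every ratio difference with Ilp3 or Ilp5 depends on the 0.5 added, since Ilp3 has 0 counts in CS replicates 1 and 2 and Ilp5 in STIM KO replicate 3, and is no bound. Only 0.275% of tested transcripts were without overlap and lower in their ratio to Dsk. The exact p of the Ilp5 ratio was 0.0571 without any one of CS replicates 1 to 4, with differences of -4.38 to -3.99. Ilp2 counts per Dsk count were 6.58, 6.04, 4.33 and 1.65 in CS and 0.825, 1.5, 1.78 and 2.53 in STIM KO. That ratio overlapped in replicates 3 and 4, where its mean log2 difference was -0.34 against -2.49 in replicates 1 and 2 (exact permutation test over 8 libraries, p = 0.0857). Without CS replicate 4, the lowest of CS, the difference was -1.85 (exact permutation test, p = 0.0286). In replicates 3 and 4 the genotypes were thus separated by the Ilp5 to Dsk ratio and not by the Ilp2 to Dsk ratio. Ilp3 over Dsk differed by 3.65 with overlap (exact permutation test, p = 0.143).

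Ilp3 over Ilp5 was the member ratio with the largest difference. In all 4 CS libraries Ilp5 had the more counts, at 77, 117, 109 and 41 beside 0, 0, 7 and 5 of Ilp3. In STIM KO, Ilp3 had the more counts in replicates 1, 3 and 4, at 9, 76 and 51 beside 4, 0 and 16 of Ilp5, and in replicate 2 it had 3 beside 6. The mean log2 ratio was 7.76 higher in STIM KO, without overlap (exact permutation test, p = 0.0286), and 6.12 higher with 2 added to each count in place of 0.5. Without CS replicate 1 or 2 it was 7.16 or 6.96 (exact permutation tests, p = 0.0571 each). With Ilp5 as the denominator, 56.0% of tested transcripts had a higher ratio without overlap, so the separation as such is not particular to Ilp3. Over Ilp2, the Ilp5 ratio differed by -2.70 and the Ilp3 ratio by 5.06 (exact permutation tests, p = 0.0571 each). The Ilp5 to Ilp2 ratio differed by -3.44 without STIM KO replicate 4 (exact permutation test, p = 0.0286).

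The members were also set against other peptide genes of the brain. These were Dh44, a diuretic hormone made by neighbouring median neurosecretory cells, the circadian neuron peptide gene Pdf, corazonin (Crz), leucokinin (Lk) and sNPF. The sum of the 43 peptide genes other than the members and the sum of 8 pan-neuronal genes were used as well. Since the peptide sum includes Dh44, Pdf, Crz, Lk and sNPF, these denominators are not independent. In STIM KO replicate 3, sNPF held 12946 of its 19777 counts. Dh44 was at 339, 236, 274 and 160 CPM in CS replicates 1 to 4 and 254, 270, 332 and 150 CPM in STIM KO. It overlapped between the genotypes, with a log2 CPM difference of -0.01 (exact permutation test, p = 0.943). Lk, by contrast, was at 76.1 to 494 CPM in CS and 658 to 1862 CPM in STIM KO, so that 37.0% of tested transcripts were lower without overlap in their ratio to Lk.

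Ilp5 was lower in STIM KO against all 7 denominators, without overlap in 7 of 7, by -7.34 (over Lk) to -4.67 (over Pdf) in log2 ratio. The share of transcripts lower without overlap was 37.0% over Lk, 10.2% over Crz, 1.03% over Dh44, 4.32% over sNPF, 1.17% over Pdf, 11.1% over the other peptides and 1.12% over the pan-neuronal sum. Per Dh44 count there were 0.720, 1, 0.185 and 0.110 Ilp5 counts in CS, against 0.0157, 0.0321, 0 and 0.0537 in STIM KO. Ilp2 was lower against 7 of 7, but over 8 libraries it was without overlap only over the pan-neuronal sum. Within both sets it was separated in 7 of 7, as were 55.9% of transcripts over Lk, 24.9% over Crz, 8.61% over Dh44, 21.7% over sNPF, 11.6% over Pdf, 31.2% over the other peptides and 10.8% over the pan-neuronal sum. Per 1000 pan-neuronal counts Ilp2 was at 81.4, 131, 96.8 and 41.2 in CS and 10.7, 15.9, 16.6 and 27.4 in STIM KO (p = 0.0286, exact permutation test), beside 1.12% of transcripts, and the difference of -2.27 became -2.05 and -2.24 without STIM KO replicate 1 and 2 (exact permutation tests, p = 0.0571 each). Without CS replicate 4 the genotypes were also separated by Ilp2 over Lk, Crz, Pdf and the other peptides, at -6.02, -4.14, -2.54 and -3.77 (exact permutation tests, p = 0.0286 each). The pan-neuronal sum was itself lower in replicates 3 and 4 than in 1 and 2 in both genotypes. In CS replicates 1 to 4 it was at 8450, 4177, 833 and 580 CPM, and in STIM KO at 4374, 6283, 1194 and 788 CPM.

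Ilp3 was without overlap and higher over 3 of 7 denominators. These were Dh44, sNPF and the summed other peptides, with log2 ratio differences of 2.95, 2.28 and 2.25, beside 1.70%, 0.343% and 0.686% of transcripts. Over Lk, Ilp3 was separated in replicates 3 and 4, at 2.31 in log2 ratio. In replicates 1 and 2 no ratio of Ilp3 to Lk is given, since CS had 0 Ilp3 counts beside 24 and 44 of Lk, and STIM KO had 9 and 3 beside 1872 and 605. Dsk had a lower mean against 7 of 7 and overlapped over 8 libraries in all of them, with differences of -3.23 to -0.56. Without CS replicate 1, Dsk over the pan-neuronal sum differed by -1.08 (exact permutation test, p = 0.0286). Of 34 ratios tested in all, 13 had the smallest p the design allows (exact permutation tests, p = 0.0286), and the lowest Benjamini-Hochberg adjusted value over the 34 was 0.0747. Of the ratios of Ilp3 and Ilp5 to these denominators that had that p, all but Ilp5 over Pdf had an exact p of 0.0571 without 1 or more single libraries.

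**Figure D5:**
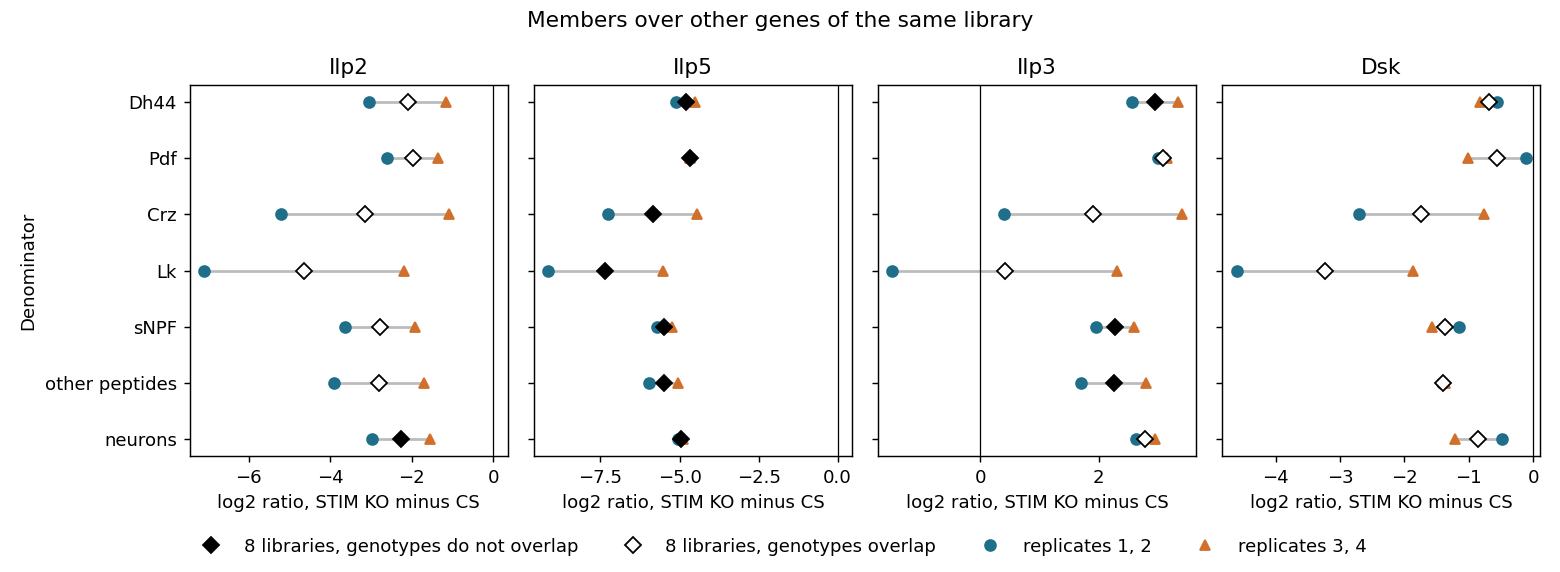
Difference in mean log2 ratio of counts, STIM KO minus CS (horizontal axis, scaled separately in each panel), of each gene over 7 denominators (vertical axis); diamonds are 8 libraries, filled where the genotypes did not overlap, circles replicates 1 and 2 and triangles replicates 3 and 4; with 0.5 added to each count, which sets the size of Ilp3 in CS replicates 1 and 2 and of Ilp5 in STIM KO replicate 3. All 7 diamonds of Ilp5 are filled and lie at -4.67 or below, and none of Dsk is filled. The filled diamonds of Ilp3 depend on the 0 counts of CS replicates 1 and 2 being taken as they stand.

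The other genes of the pathway were taken next. Of 5 other insulin-like peptide genes, 4 were detected and 2 tested. These were Ilp6, a growth factor made mainly in fat body and glia, and Ilp7, a peptide of ventral nerve cord neurons. Ilp6 was at 9.81 to 47.5 CPM in CS and 3.52 to 31.8 CPM in STIM KO, with a log2 fold change of -0.85 (adjusted p = 0.999 by edgeR with Benjamini-Hochberg adjustment), and of -0.78 in replicates 1 and 2 and -1.29 in replicates 3 and 4. Ilp7 was at 22.4 to 127.0 CPM in CS and 19.4 to 79.4 CPM in STIM KO, with -0.55 (adjusted p = 0.999 by edgeR), and -0.69 and -0.08 within the sets. InR, read from 1 of its transcripts, was at 8.06 to 47.5 CPM in CS and 33.1 to 93.5 CPM in STIM KO, with 1.13 (adjusted p = 0.872 by edgeR), and 1.39 and 0.77 within the sets. Both receptors of the drosulfakinins, CCKLR-17D1 and CCKLR-17D3, were tested, at 0.35 and 0.82 (adjusted p = 0.999 and 0.997 by edgeR). Within the sets they were at -0.32 and 0.27 in replicates 1 and 2 and at 0.96 and 0.98 in replicates 3 and 4. None of these 5 genes had an adjusted p under 0.05 within a set.

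Over 8 libraries, edgeR called 0 genes of any of these lists after Benjamini-Hochberg adjustment, and DESeq2 called 0 of them as well. Of 15 receptors that genetic work places in the insulin-producing neurons, 11 were detected and 5 tested, with a median log2 fold change of 0.75. The 7 genes for cutting and amidating peptide precursors had 4 tested and a median of -0.26, and the 6 genes for excitability and secretion had 3 tested and a median of 0.46. None of those 12 tested genes had an unadjusted p under 0.05 in the fit without the set term, beside 6.09% of all transcripts. With the set term, the dopamine receptor genes DopEcR (1.77) and Dop1R1 (0.93) had one by edgeR. So did Glut1 (1.84) and cac (-1.61) of the excitability and secretion genes, beside 16.8% of transcripts, and none passed adjustment. Of 5 transcription factor genes, 3 were tested, and dimm, a regulator of peptidergic neurons, had an unadjusted p of 0.00854 at a log2 fold change of 5.43. It was at 3.17, 8.06, 40.1 and 31.6 CPM in CS, against 3495, 172, 62.1 and 33.1 CPM in STIM KO, and by edgeR it rose by 8.23 in replicates 1 and 2 (adjusted p = 0.0145) and was at 0.41 in replicates 3 and 4 (adjusted p = 0.925). Of the 43 other peptide genes, 24 were tested, 4 were higher and 1 lower at an unadjusted p under 0.05, and the median was -0.27, beside 0.05 over all transcripts tested. Many of these genes have several overlapping transcripts, whose shared reads may have been set aside as ambiguous.

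Markers of tissues that can adhere to a dissected brain were read beside the members. Gut genes summed to 0, 10.1, 0.932 and 4.69 CPM in CS replicates 1 to 4 and to 21.9, 5.77, 1.94 and 124.6 CPM in STIM KO, with betaTry and Vha100-4 at 0 throughout and 3 of 5 genes detected. STIM KO replicates 3 and 4, the 2 libraries highest in Ilp3, had the lowest and the highest gut sum of their genotype. Muscle genes, 6 of 6 detected, summed to 3344, 5774, 740 and 1085 CPM in CS, against 844, 2787, 545 and 1509 CPM in STIM KO, and were lower in STIM KO without overlap in replicates 1 and 2.

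Ring gland genes, 5 of 5 matched genes detected, summed to 954, 1185, 5729 and 8293 CPM in CS, against 1525, 865, 873 and 3182 CPM in STIM KO, and were lower in STIM KO without overlap in replicates 3 and 4. Among them sad, which encodes an enzyme of ecdysteroid synthesis, was at 257, 351, 963 and 904 CPM in CS and 35.8, 17.3, 25.2 and 193 CPM in STIM KO. It fell by 3.28 on the log2 scale with the set term (adjusted p = 0.0339 by edgeR) and was called by DESeq2. The peptide gene Akh of the same list went the other way, at 1.82 over 8 libraries (unadjusted p = 0.0344 by edgeR). Its values were 2.69 in replicates 1 and 2 and 0.39 in replicates 3 and 4. Neuroblast genes, 5 of 5 detected, were lower in STIM KO without overlap in replicates 3 and 4, at 1291 and 1200 CPM in CS and 307 and 771 CPM in STIM KO. Their member ase, a neural precursor transcription factor gene, was at 298 to 430 CPM in CS and 108 to 249 CPM in STIM KO (exact permutation test, p = 0.0286). Glial genes, 6 of 6 detected, were lower in STIM KO in replicates 1 and 2, at 1347 and 1028 CPM in CS and 775 and 980 CPM in STIM KO. In replicates 3 and 4 they were higher, at 2562 and 2162 CPM in STIM KO and 1505 and 1595 CPM in CS. Pan-neuronal genes overlapped within both sets in their sum. Of that list fne, an RNA-binding protein gene, was at 78.9 to 257 CPM in CS and 5.97 to 45.1 CPM in STIM KO and was called by DESeq2. It was not typical of the list. With the set term, the 7 pan-neuronal genes tested had a median log2 fold change of 0.37, with 1 higher and 1 lower at an unadjusted p under 0.05. The higher one was nSyb, at 1.44 (unadjusted p = 0.00936 by edgeR). The part of these markers in the levels of the members was not tested.

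Across the 8 libraries, the transcripts most like each member were found by the root mean square difference of log2 CPM centred on each transcript's mean. For Ilp5 these were CG13678 at 0.67, CG1368 at 0.77 and CG17217 at 1.04, and Ilp2 ranked 10 of the tested transcripts at 1.24. Ilp2 was closest to Ahcy at 0.43, CG8611 at 0.45 and DUBAI at 0.45. Dsk was closest to Fib at 0.24, Ilp6 and bur, both at 0.26. For Ilp3 the closest were CG11700 at 0.39, Cnx14D at 0.58 and the antisense RNA CR44053 at 0.62. Patterns within 1.0 of Dsk were common, at 21.1% of tested transcripts, against 0.0343% for Ilp5. Ilp2 and Dsk differed by 0.99, Ilp5 and Dsk by 1.97, and Ilp3 was farthest from Ilp5 at 3.99.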

How the data were processed

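RNA of larval brains from 4 CS and 4 STIM KO samples was sequenced. The authors trimmed reads with trimmomatic, aligned them to dm6 with hisat2, sorted them with Samtools and deposited the htseq-count read count of each transcript, without normalization. The annotation, counting mode, strand setting and versions are not given in the sources used here. Rows that name no transcript held 88.4% to 96.4% of reads and were left out. A deposited DESeq2 table of the authors' own comparison was not used.

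The test of the counts was edgeR's quasi-likelihood test (edgeR 4.0.16 in R 4.3.3) with TMM factors, after filterByExpr had removed transcripts below its count limits (10 for a library, 15 in total). Its p-values were adjusted by Benjamini-Hochberg for all transcripts that were tested. As an alternative, DESeq2 1.42.0 was used. Log2 CPM carry a prior count of 2, and ratios add 0.5 to each count. Exact tests used scipy 1.17.1, and plots used matplotlib 3.10.9. The edgeR and DESeq2 fits were tested on simulated counts with known changes, and the exact test on a made-up series of values. Gene positions come from annotations of the same assembly, in which each member has 1 transcript. No table with sequences was used here.

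The genes named are the 4 members, the genes of 20 lists by their transcript of highest mean CPM, genes within 50 kb of the cluster and the 3 tested transcripts most like each member. The members and lists were chosen with earlier results of these data known. The correlation of deviations from the genotype means was 0.400 to 0.788 between same-numbered libraries and 0.357 to 0.729 between differently numbered libraries of a set. These ranges overlap, so libraries go together by set, and pairing by number within a set was not shown. No 2 libraries agreed within sampling noise. Labels call the libraries biological replicates, and p-values measure only the spread between them. Alternatives were other scalings and filters, summed counts per gene, a robust fit, a replicate block, a set term, replicates 2 to 4 and leaving out each library. Unfiltered fits with the set term or the block, and those leaving out libraries for Ilp3, were chosen after seeing the data.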

Additional observations from a re-analysis of the deposited data

How the results depend on the processing

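Of 542 alternative values for 58 results, 448 kept their direction and side of the threshold, 64 no longer passed, 17 passed only there, 11 counts moved by over 1.5 times and 2 changed sign. Counts of transcripts called over 8 libraries (0 by edgeR) were 85 by DESeq2, 2 with library size only, 30 with every transcript of at least 1 count, 2 with CPM above 1 in at least 2 libraries, 14 with the replicate block, 39 with the set term, and 481 and 312 unfiltered with the set term and the block. Unfiltered, the calls within replicates 1 and 2 were 940 in place of 401, within 3 and 4 they were 185 in place of 2, and for the interaction 340 in place of 0. The cause was not tested. The median log2 fold change was 0.05 by edgeR and -0.19 over the 15947 transcripts of DESeq2.

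Ilp5 passed by DESeq2 at -4.74 and unfiltered by edgeR at -4.59 (adjusted p = 0.0492), and over its alternatives by edgeR and DESeq2 its adjusted p ran from 2.20e-10 to 1. Unfiltered with the set term and with the replicate block, Ilp2 passed at -2.21 and -2.14, Ilp5 at -4.11 and -4.46 and Ilp3 at 3.64 and 3.6, while Dsk did not. The block changed no other call of a member. Within replicates 3 and 4 Ilp5 passed unfiltered at -3.10. The exact test of Ilp3 no longer passed with library size only (2.59, exact p = 0.0571). Permuted within sets, where p cannot be below 0.0556, the differences were 2.70 for Ilp3, -4.06 for Ilp5, 7.76 for Ilp3 over Ilp5 and -4.11 for Ilp5 over Dsk. Ilp3 over Lk, which rests on 0 counts in CS replicates 1 and 2, changed sign with 2 added to counts (-0.51) and without STIM KO replicate 3, with -0.29 to 0.87 over the libraries left out.

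Leaving out each library in turn gave 0 to 0 calls by edgeR with the filter and 6 to 122 without it. The edgeR values ran from -3.53 to -2.27 for Ilp2, -5.12 to -4.27 for Ilp5, 2.80 to 3.93 for Ilp3 (without the filter) and -1.17 to -0.24 for Dsk. The log2 CPM differences ran from -3.00 to -1.41 for Ilp2, -4.79 to -3.44 for Ilp5, 2.27 to 3.18 for Ilp3 and -1.13 to -0.19 for Dsk. Log2 ratio differences ran from 6.09 to 8.81 for Ilp3 over Ilp5, 4.18 to 6.09 for Ilp3 over Ilp2, -3.44 to -1.79 for Ilp5 over Ilp2, -5.09 to -3.27 for Ilp5 over Dsk, -1.85 to -1.12 for Ilp2 over Dsk and 2.82 to 4.63 for Ilp3 over Dsk. Depth limits Ilp3 in CS replicates 1 and 2 and Ilp5 in STIM KO, where no library held more than 16 counts.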
